A study of Homo sapiens with 9 samples.

Results

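The 46 genes described here serve the passage from G1 into S phase and the copying of DNA. They were chosen by name, as rows of the deposited FPKM table whose gene symbol is one of 46 listed symbols. All 46 were found among the 58735 genes of the table, and all 46 passed the filter on low values that left 13912 genes for testing. FPKM is the number of sequenced fragments per gene length and per sequencing depth, so levels can be set side by side between genes, subject to the gene lengths used.

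The data are bulk RNA-seq of MDA-MB-231, a human breast cancer cell line of mesenchymal type without oestrogen and progesterone receptors, labelled as wild type. The study compared media in which other cells had been grown (conditioned medium, CM), with 3 libraries in each of 3 groups. No CM cells received medium alone. Cont CM cells received medium from non-senescent MDA-MB-231 cells, and TIS CM cells received medium from MDA-MB-231 cells made senescent by 72 h in 100 ng/ml nocodazole, a drug that blocks microtubule assembly (TIS, therapy-induced senescence). All groups were grown in DMEM with fetal bovine serum and antibiotics. The sample labels give 72 h in the media and the series' design text gives 48 h. The donor and the recipient of each medium are the same single line, and the labels do not say that replicates came from separate cultures, so p-values here measure the spread between these libraries.

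In G1, RB proteins hold E2F transcription factors inactive; cyclin E with its kinase releases them, and E2F then drives the genes of DNA synthesis. Origins are licensed when ORC, CDC6 and CDT1 load the MCM helicase, the helicase is switched on by CDC45, the GINS complex and MCM10, and polymerases, the PCNA clamp and its RFC loader copy the strands. Other members supply deoxynucleotides, join Okazaki fragments, package the new DNA into chromatin or guard the fork.

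The libraries held between 32636708 and 39189036 assigned fragments and between 22637 and 23295 genes above 0. The 6 markers of MDA-MB-231 (VIM, CD44, ZEB1, AXL, CAV1 and LOX) summed to between 855.8 and 929.4 FPKM in each library. Among the 7 luminal epithelial genes, the receptor genes ESR1 and PGR did not exceed 0.00801 and 0.00539 FPKM, while the keratins KRT18 and KRT8 had means of 133.2 and 93.6 FPKM, EPCAM 8.54, GATA3 5.61 and CDH1 0.636. Of the markers of other cell types, the immune genes summed to between 3.19 and 5.80 FPKM, mostly CD14, and PTPRC, the pan-leukocyte marker, did not exceed 0.0277 FPKM. The 5 fibroblast genes summed to between 2.11 and 2.76 FPKM with DCN at 0, and the 5 endothelial genes to between 1.38 and 1.96 FPKM. The second principal component (17.6% of the variance) placed Cont CM replicate 1 at -19.3 and Cont CM replicates 2 and 3 at 13.4 and 7.62. Counts and medians that rest on the Cont CM libraries are therefore also given without replicate 1 where these were computed.

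Most of the matched promoters of these genes held letters of the E2F site. The listed genes belong to a process that E2F drives, so that share is not independent of their choice. Of the members, 39 matched the RefSeq promoter table (GRCh38.p14), with 50 windows of 300 bases each, 250 before and 50 after a transcription start. CCNE2, GINS4, E2F8, MCM4, RPA2, DSCC1 and MCM5 had no entry. The E2F letters searched were the run TTCCCGC, the run TTGGCGC, the run TTCGCGC and the run TTGCCGC, on both strands. At least 1 of these runs was present in 34 of the 50 member windows (68.0%). The share was 19.4% of the 13671 windows of tested genes and 13.0% of the 35116 windows in the table. Counted by gene, 32 of 39 members (82.1%) and 25.4% of the 9422 tested genes with a window held one. The letters CCAAT, also on both strands, were in 30 of 50 member windows (60.0%), against 34.6% of the 13671 windows of tested genes. Base composition was not matched in these shares.

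Upstream sequence, the 150 bases that end at the transcription start, is shown for 3 genes: E2F2, the member with the largest fall below, E2F1, its close relative that did not pass, and PCNA, the most abundant member, which did not pass either. PCNA was picked for display after its values were seen. All 3 lie on the minus strand and are written 5′ to 3′ as the gene reads, at chr1:23531234-23531383, chr20:33686386-33686535 and chr20:5126623-5126772 in that order. Capitals mark the E2F letters and CCAAT on either strand.
E2F2: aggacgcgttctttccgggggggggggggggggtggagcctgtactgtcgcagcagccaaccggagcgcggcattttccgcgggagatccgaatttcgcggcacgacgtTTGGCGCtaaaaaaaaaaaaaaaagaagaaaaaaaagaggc
E2F1: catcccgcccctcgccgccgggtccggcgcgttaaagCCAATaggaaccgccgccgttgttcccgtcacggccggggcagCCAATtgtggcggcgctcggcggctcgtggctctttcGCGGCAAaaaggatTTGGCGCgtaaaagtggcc
PCNA: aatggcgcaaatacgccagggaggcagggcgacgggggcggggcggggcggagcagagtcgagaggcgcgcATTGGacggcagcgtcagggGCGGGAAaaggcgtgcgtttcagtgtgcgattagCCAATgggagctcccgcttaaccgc
In E2F2 the run TTGGCGC begins 41 bases before the start. In E2F1 the same run begins 19 bases before the start, with a second E2F run at 33 bases and CCAAT at 113 and 70 bases. In PCNA the E2F letters begin 59 bases before the start and lie between CCAAT runs at 79 and 25 bases. E2F runs thus stand before genes that passed and genes that did not. Among matched genes an E2F run was found in 6 of the 6 members lower in Cont CM and in 26 of the 33 others (78.8%). CCAAT was found in 2 of those 6 and in 22 of the 33 others (66.7%), and E2F2 has none in the window. A match of letters is a description of the sequence and not a measured binding site.

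Medium from non-senescent cells went with slightly lower levels of a few of these genes than medium alone. Between Cont CM and No CM, 8 of the 46 fell (17.4%), none rose and 38 did not pass (limma adjusted p under 0.05 over all 13912 genes). The 8 were TK1, E2F8, LIG1, E2F2, CDT1, TYMS, UHRF1 and MCM5. Over all tested genes 8.56% were called lower and 7.77% higher in this comparison, 16.3% in either direction. The members' share called in either direction was close to that background, and their calls all lay on the lower side. The median log2 fold change of the members was -0.09, with 32 of 46 below 0, against -0.00 and 50.2% below 0 over all tested genes. Without Cont CM replicate 1 the median was -0.01, with 25 of 46 below 0. In 16 members all 3 Cont CM libraries lay below all 3 No CM libraries, and in 2 (CDC6 and GINS3) they lay above. The same held for 16.8% and 16.6% of all tested genes. Without Cont CM replicate 1 it held for 18 members below and 7 above, against 24.6% and 25.5% of all tested genes. At an unadjusted p under 0.05, 15 members were lower and 0 higher. No share of all tested genes is given at that threshold, nor a count without Cont CM replicate 1, so this count has no background. Without No CM replicate 1 the number that fell was 5, and without No CM replicate 3 it was 4 (TK1, E2F8, LIG1 and E2F2). Over all tested genes the number called lower also dropped, from 1191 to 774 and 582 in those 2 fits.

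Most changes were small. On the log2(FPKM + 0.5) scale no member moved by 1.5-fold, but that scale shrinks the lowest gene: E2F2 was 1.42-fold lower on it, 1.51-fold lower with a pseudocount of 0.1, 1.53-fold lower by limma-voom and 1.54-fold lower as the plain ratio of mean FPKM. TK1 followed at a plain ratio of 1.24. The 95% intervals of all 38 members that did not pass lay within 1.5-fold in either direction, 34 of them within 1.25-fold. Across all 9 libraries the highest value of a member was a median of 1.21 times its lowest, against 1.30 over all tested genes, and 44 of 46 stayed under 1.5 times. In bulk RNA, fewer cells in a cycle phase and less RNA per cell cannot be told apart.

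Some genes of the luminal epithelial, immune, fibroblast and MDA-MB-231 marker lists moved in the same comparison. The 7 luminal genes summed to between 263.2 and 288.9 FPKM in No CM, 192.4 and 243.5 in Cont CM, and 230.5 and 236.9 in TIS CM. Of the 5 tested, 4 fell in Cont CM against No CM: CDH1 (E-cadherin) by 2.10-fold, KRT8 by 1.35-fold, KRT18 by 1.29-fold and GATA3 by 1.23-fold, at limma adjusted p between 0.000584 and 0.0229. CDH1 was also 1.78-fold lower in TIS CM than in No CM (limma adjusted p = 0.0226). The immune genes summed to between 4.53 and 5.80 FPKM in No CM, 3.19 and 4.09 in Cont CM, and 4.53 and 5.21 in TIS CM. The fibroblast genes summed to between 2.49 and 2.73 FPKM in No CM, 2.11 and 2.45 in Cont CM, and 2.603 and 2.76 in TIS CM. The endothelial genes were not lower in Cont CM. They summed to between 1.38 and 1.73 FPKM in No CM, 1.65 and 1.90 in Cont CM, and 1.55 and 1.96 in TIS CM. The 1 endothelial gene tested did not pass. CD14, the 1 immune gene tested, fell by 1.35-fold and PDGFRB, 1 of 2 fibroblast genes tested, by 1.29-fold in Cont CM against No CM. LOX, 1 of the 6 MDA-MB-231 markers, rose by 1.59-fold. The calls of these 7 genes in Cont CM against No CM held without Cont CM replicate 1, and their part in the members' values was not tested.

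**Figure D1:**
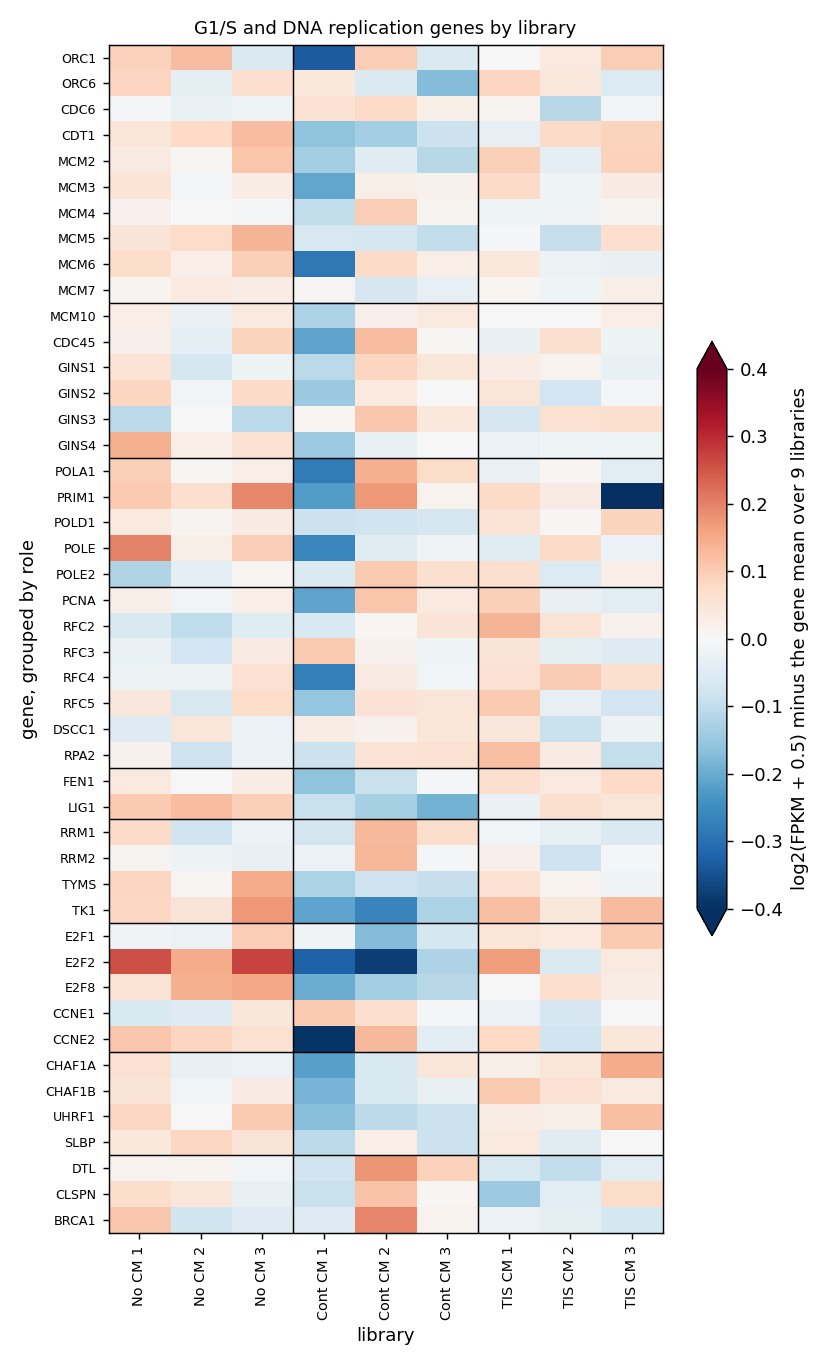
Level of each of the 46 genes (rows, grouped by role) in each of the 9 libraries (columns), as log2(FPKM + 0.5) minus the gene's own mean over the libraries; blue is lower and red higher, and colours stop at 0.4 either way. The column of Cont CM replicate 1 is the bluest, with 39 of 46 genes below their own mean.

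One library weighed on the median. Cont CM replicate 1 stood at a median of -0.13 from the members' own means on the log2 scale, while Cont CM replicates 2 and 3 stood at 0.02 and -0.00. Of the 46 genes, 25 had their lowest value of all 9 libraries in Cont CM replicate 1, and 14 had their highest in Cont CM replicate 2. Without Cont CM replicate 1 the members' median log2 fold change of Cont CM against No CM was -0.01. The 8 called genes each lay below their own mean in all 3 Cont CM libraries, with medians of -0.17, -0.13 and -0.11, which a call in this comparison favours. Without Cont CM replicate 1 the same 8 remained lower. DTL, a substrate receptor of the ubiquitin ligase that removes CDT1 in S phase, was called higher (log2 fold change 0.13, limma adjusted p = 0.043). These 8 lower and 1 higher of 46 stood beside 10.4% of all genes called lower and 9.59% called higher in that fit.

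The genes that fell had a higher median GC content than the other members, a difference that was not tested. The GC content of the longest transcript had a median of 56.7% in the 8 called members (45.9% to 64.9%) and 46.7% in the 38 others, against 48.5% in all tested genes. All genes called lower in Cont CM had a median of 56.3% and all called higher 44.2%. Across the 46 members, which are not independent replicates and share libraries, the log2 fold change had r = -0.50 with GC content, and r = -0.62 without Cont CM replicate 1. The deviations of all genes in a library had r = -0.41 with GC content in Cont CM replicate 2, -0.20 in replicate 3 and -0.03 in replicate 1. In No CM this r lay between -0.02 and 0.19, and in TIS CM between 0.07 and 0.22. When the trends with GC content and gene length were taken out of every library, 5 of the 8 passed (TK1, E2F8, LIG1, E2F2 and TYMS). UHRF1, MCM5 and CDT1 did not, at limma adjusted p of 0.0972, 0.223 and 0.352. Of the 5 that passed, 3 had smaller log2 fold changes than in the main fit: TK1 -0.21 from -0.30, LIG1 -0.17 from -0.25 and E2F2 -0.42 from -0.50. TYMS stayed at -0.18 and E2F8 had -0.29 from -0.27. The part of GC content in the fall of the 8 genes was not tested further.

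**Figure D2:**
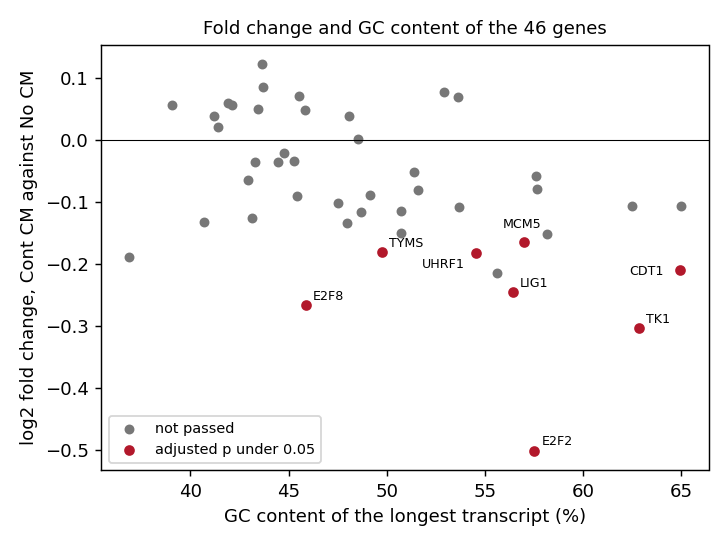
Log2 fold change of Cont CM against No CM (vertical axis, limma on log2(FPKM + 0.5)) against the GC content of each gene's longest transcript in percent (horizontal axis) for the 46 genes. The 8 genes with an adjusted p under 0.05 are in red and named, and 7 of them lie to the right of the members' median of 48.3%.

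Among the nucleotide supply genes, TK1 and TYMS fell and both subunits of ribonucleotide reductase did not pass. TK1 encodes thymidine kinase 1, which salvages thymidine in S phase (ENSG00000167900, chr17:78174075-78187233 on hg38, minus strand). Its FPKM was 106.0, 103.8 and 112.9 in No CM, 86.4, 83.3 and 91.6 in Cont CM, and 108.8, 103.2 and 109.3 in TIS CM. Every Cont CM library lay below every other library. TK1 was 1.23-fold lower under Cont CM than under No CM (log2 fold change -0.30, SE 0.0485, limma adjusted p = 0.00416), and the call held in each of the 6 fits that left out 1 library of these groups.

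TYMS encodes thymidylate synthase, which makes dTMP (ENSG00000176890, chr18:657604-673578, plus strand). Its FPKM was 126.3, 119.4 and 131.7 in No CM, 108.8, 112.3 and 111.5 in Cont CM, and 123.9, 120.0 and 117.7 in TIS CM. All Cont CM values lay below all others. TYMS was 1.13-fold lower under Cont CM than under No CM (log2 fold change -0.18, SE 0.0427, limma adjusted p = 0.0218). Without No CM replicate 1, No CM replicate 3 or Cont CM replicate 3 the limma adjusted p was 0.0622, 0.0819 and 0.0516, and with quantile normalization or only these 2 groups in the fit it was 0.0782 and 0.0651. TYMS overlaps ENOSF1 and TYMSOS on the opposite strand. The strand setting of the counting is unknown here, and reads of such pairs cannot be told apart; 21 of the 46 members overlap a tested gene, E2F8 and LIG1 an antisense gene among them. RRM1, the large subunit of ribonucleotide reductase, had a log2 fold change of 0.05 and RRM2, its S-phase subunit, also 0.05.

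Of the 5 E2F and cyclin E genes, E2F2 and E2F8 fell. E2F2 encodes an activating E2F factor (ENSG00000007968, chr1:23506430-23531220, minus strand) and was the least abundant of the 46. Its FPKM was 2.597, 2.37 and 2.62 in No CM, 1.57, 1.49 and 1.87 in Cont CM, and 2.40, 1.99 and 2.16 in TIS CM, from between 282 and 512 fragments per library. The Cont CM values lay below all others, and TIS CM replicates 2 and 3 lay below all of No CM. E2F2 was 1.42-fold lower under Cont CM than under No CM (log2 fold change -0.50, SE 0.0885, limma adjusted p = 0.00662), the largest change among the members.

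E2F8 encodes an atypical E2F that represses E2F targets later in S phase (ENSG00000129173, chr11:19224063-19241620, minus strand). Its FPKM was 9.55, 10.2 and 10.3 in No CM, 7.94, 8.29 and 8.46 in Cont CM, and 9.19, 9.64 and 9.38 in TIS CM. The 3 Cont CM libraries were the lowest of the 9. E2F8 was 1.203-fold lower under Cont CM than under No CM (log2 fold change -0.27, SE 0.0441, limma adjusted p = 0.00495).

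The other 3 genes of this role did not pass. E2F1, the best known activating E2F, stood at 58.2 ± 2.80 FPKM in No CM and 54.0 ± 3.00 in Cont CM (SD, n = 3 each), with a log2 fold change of -0.11 (95% interval -0.22 to 0.01). CCNE1, a cyclin E gene, had the highest fold change of the role, at 0.08 on the log2 scale (interval -0.03 to 0.19). CCNE2, the other cyclin E gene, had -0.19 (interval -0.44 to 0.06). Its Cont CM values of 7.004, 10.26 and 9.05 FPKM were the lowest and the highest of all 9 libraries in replicates 1 and 2.

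Licensing held 10 members, of which CDT1 and MCM5 fell. CDT1, a loader of the MCM helicase (ENSG00000167513, chr16:88803213-88809258, plus strand), had FPKM of 13.2, 13.5 and 14.0 in No CM, 11.4, 11.6 and 12.02 in Cont CM, and 12.5, 13.5 and 13.6 in TIS CM. Cont CM was lowest without overlap. CDT1 was 1.16-fold lower under Cont CM than under No CM (log2 fold change -0.21, SE 0.0449, limma adjusted p = 0.0149), and without No CM replicate 3 the adjusted p was 0.0637.

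MCM5, a subunit of the MCM2 to MCM7 helicase (ENSG00000100297, chr22:35400063-35425430, plus strand), had FPKM of 16.7, 16.9 and 17.7 in No CM, 15.34, 15.28 and 14.96 in Cont CM, and 15.998, 15.02 and 16.85 in TIS CM. Cont CM lay below No CM, and TIS CM overlapped both. MCM5 was 1.121-fold lower under Cont CM than under No CM (log2 fold change -0.16, SE 0.0462, limma adjusted p = 0.041). That call held without Cont CM replicate 1 and ended without any of the other 5 libraries of these groups (No CM replicates 1 to 3 at 0.0678, 0.087 and 0.142, Cont CM replicates 2 and 3 at 0.0802 and 0.104). It also ended with no filter on low values (0.0733) and with only these 2 groups in the fit (0.0562).

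The remaining MCM subunits did not pass. MCM2 came nearest: its FPKM was 28.1, 27.5 and 29.6 in No CM, 24.8, 26.5 and 25.3 in Cont CM, and 29.3, 26.6 and 29.2 in TIS CM, so that Cont CM lay below both others by a narrow gap. Its log2 fold change of Cont CM against No CM was -0.15 (SE 0.0488, limma adjusted p = 0.066). The values for MCM3, MCM4, MCM6 and MCM7 were -0.08, 0.00, -0.13 and -0.06. The mean RNA levels of the 6 subunits over the 9 libraries ran from 16.1 FPKM for MCM5 to 98.1 FPKM for MCM3, a ratio of 6.10. That ratio depends on the gene lengths used for FPKM, 7338 bases for MCM5 and 3650 for MCM3. The protein ring holds 1 copy of each subunit, and protein was not measured here. CDC6, which loads MCM together with CDT1, lay above No CM in all 3 Cont CM libraries (24.9, 25.1 and 24.2 FPKM against 23.7, 23.4 and 23.6) and did not pass (log2 fold change 0.07, limma adjusted p = 0.252). ORC1 and ORC6, subunits of the origin recognition complex, had -0.15 and -0.10.

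LIG1 and FEN1 complete Okazaki fragments. LIG1, DNA ligase 1 (ENSG00000105486, chr19:48115445-48170603, minus strand), had FPKM of 10.52, 10.67 and 10.44 in No CM, 9.12, 8.84 and 8.49 in Cont CM, and 9.55, 10.2 and 10.1 in TIS CM. The 3 groups did not overlap: No CM was highest, TIS CM between and Cont CM lowest. LIG1 was 1.19-fold lower under Cont CM than under No CM (log2 fold change -0.25, SE 0.042, limma adjusted p = 0.00579).

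FEN1, the flap endonuclease, had FPKM of 78.7, 76.7 and 78.3 in No CM, 68.5, 72.1 and 76.3 in Cont CM, and 80.4, 78.8 and 80.8 in TIS CM. TIS CM was highest and Cont CM lowest without overlap, though Cont CM replicate 3 came close to No CM. The log2 fold change of Cont CM against No CM was -0.11 (limma adjusted p = 0.111). FEN1 overlaps FADS2 on the same strand over 4265 bases, so fragments of the 2 genes may not be separable.

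Chromatin members include UHRF1, which reads hemimethylated DNA behind the fork (ENSG00000276043, chr19:4903080-4962154, plus strand). Its FPKM was 34.0, 32.1 and 34.5 in No CM, 28.5, 29.8 and 30.2 in Cont CM, and 32.7, 32.6 and 34.9 in TIS CM. Cont CM lay below both others, which overlapped each other. UHRF1 was 1.13-fold lower under Cont CM than under No CM (log2 fold change -0.18, SE 0.0437, limma adjusted p = 0.0231). Without No CM replicate 1 or 3 the limma adjusted p was 0.0715 and 0.0898, and with only these 2 groups in the fit 0.0547.

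CHAF1B and CHAF1A encode subunits of CAF-1, which deposits histones on new DNA, and SLBP binds histone mRNA; none of these 3 passed. CHAF1B had FPKM of 10.54, 10.07 and 10.40 in No CM, 8.88, 9.73 and 9.94 in Cont CM, and 10.96, 10.62 and 10.45 in TIS CM. Cont CM was lowest without overlap, with replicate 1 farthest down. Its log2 fold change of Cont CM against No CM was -0.12 (limma adjusted p = 0.137), and those of CHAF1A and SLBP were -0.08 and -0.11.

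The 4 remaining roles held 21 members, none of which passed. Among 5 polymerase and primase genes (POLA1, PRIM1, POLD1, POLE and POLE2), POLD1, the catalytic subunit of polymerase delta, had FPKM of 14.1, 13.9 and 14.1 in No CM, 12.9, 13.0 and 13.1 in Cont CM, and 14.3, 13.8 and 14.6 in TIS CM. Cont CM lay below both others in a tight group. POLD1 had a log2 fold change of -0.11 between Cont CM and No CM (SE 0.0349, limma adjusted p = 0.0697). POLE, the catalytic subunit of polymerase epsilon, had the lowest value of this role at -0.21 (limma adjusted p = 0.0936), and its partner POLE2 the highest at 0.09. PRIM1, the primase, stood out in a single library, with 5.10 FPKM in TIS CM replicate 3 against 5.995 to 8.15 in the other 8. It and E2F2 were the 2 members whose highest library was over 1.5 times the lowest.

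Helicase activation had 6 members (MCM10, CDC45 and GINS1 to GINS4) between -0.13 (GINS4) and 0.12 (GINS3) on the log2 scale, both subunits of the same 4-part GINS complex. The 7 clamp, clamp loader and single-strand binding genes (PCNA, RFC2 to RFC5, DSCC1 and RPA2) lay between -0.09 (RFC4) and 0.07 (RFC2), both subunits of the clamp loader. PCNA, the sliding clamp, was the most abundant member at a mean of 140.0 FPKM, which is 66.1 times that of E2F2. Its FPKM was 142.1, 138.7 and 142.3 in No CM, 120.6, 151.0 and 143.7 in Cont CM, and 149.2, 136.8 and 135.7 in TIS CM. Cont CM replicate 1 was the lowest and Cont CM replicate 2 the highest of the 9, and the log2 fold change was -0.03 (interval -0.21 to 0.14). CLSPN, BRCA1 and DTL, of the checkpoint, repair and licensing control role, had -0.02, 0.06 and 0.06.

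**Figure D3:**
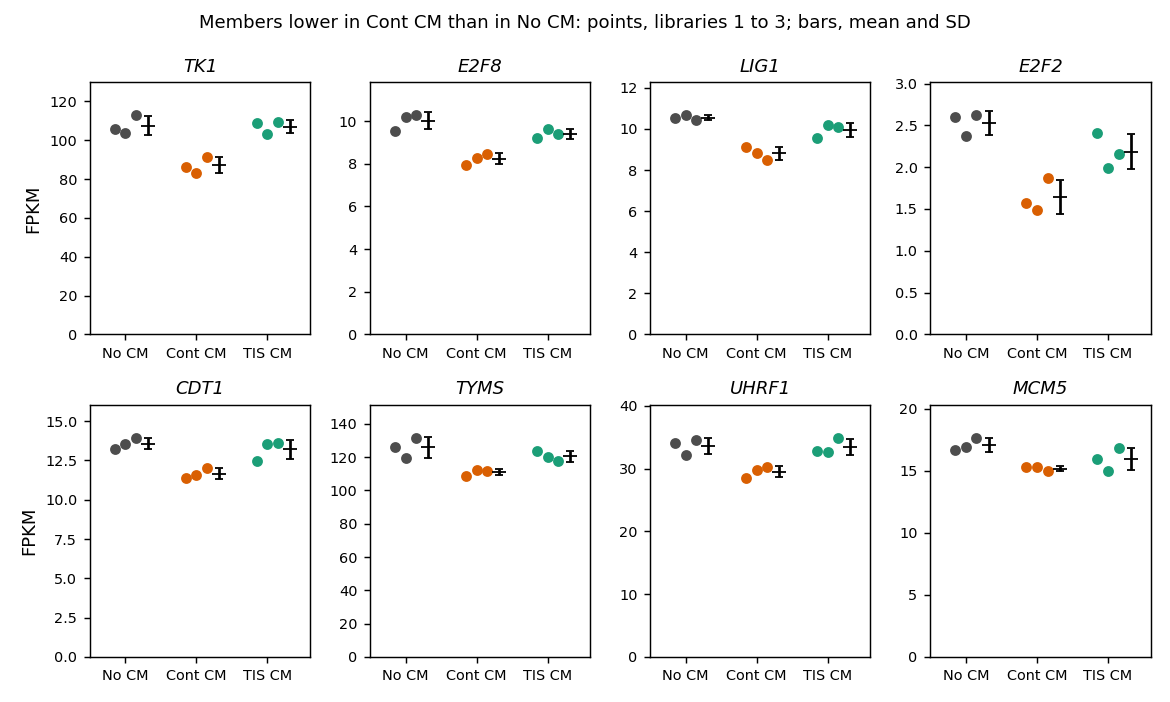
FPKM (vertical axes, from 0) of the 8 genes that fell in Cont CM against No CM, in the 3 groups; points are libraries 1 to 3 and the bars beside them the mean and SD. In each panel the Cont CM points lie below the No CM points, and in every gene but MCM5 they also lie below the TIS CM points.

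Medium from senescent cells was then set against medium from non-senescent cells. The comparison shares the Cont CM libraries with the one above, so the 2 are not independent, and values are given side by side. TK1 alone rose in TIS CM, by 1.23-fold (0.30 on the log2 scale, SE 0.0485, limma adjusted p = 0.018), none fell and 45 did not pass. Over all tested genes 2.90% were called higher and 1.57% lower, 4.48% in all, beside 1 of 46 members (2.17%) called higher. The 3 settings that called over 2 members higher also called a larger share of all genes higher. With protein-coding genes only, 13.0% of members and 5.47% of all genes were called higher. Those shares were 8.70% and 4.75% with a minimum mean of 2 FPKM, and 8.70% and 4.49% by limma-voom. The TK1 call held in 2 of 6 fits that left out a library: without Cont CM replicate 2 and without each TIS CM library the limma adjusted p was between 0.0566 and 0.0784. With the GC and length trend removed it was 0.0844, and with only these 2 groups in the fit 0.0588.

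The other 7 genes that fell in Cont CM had positive log2 fold changes in TIS CM against Cont CM without passing. They were 0.32 for E2F2, 0.18 for E2F8, 0.18 for UHRF1, 0.17 for CDT1, 0.17 for LIG1, 0.12 for TYMS and 0.07 for MCM5, with limma adjusted p between 0.0523 and 0.423. FEN1, CHAF1B, MCM2, E2F1 and POLD1 had 0.15, 0.16, 0.15, 0.15 and 0.13, with limma adjusted p of 0.0764, 0.0911, 0.109, 0.115 and 0.0702. In 13 members all TIS CM libraries lay above all Cont CM libraries and in 1 (CDC6) below, against 15% and 13.6% of all tested genes. These were 15 and 6 members without Cont CM replicate 1, against 23.5% and 22.9%. The median log2 fold change of the members was 0.05, against 0.00 over all genes, and without Cont CM replicate 1 it was -0.01. Without that library TK1 and LIG1 were called higher (LIG1 0.19, limma adjusted p = 0.0373) and DTL lower (-0.20, limma adjusted p = 0.0225). Those 2 higher calls are 4.35% of the members, beside 4.86% of all genes called higher and 2.94% called lower in that fit.

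**Figure D4:**
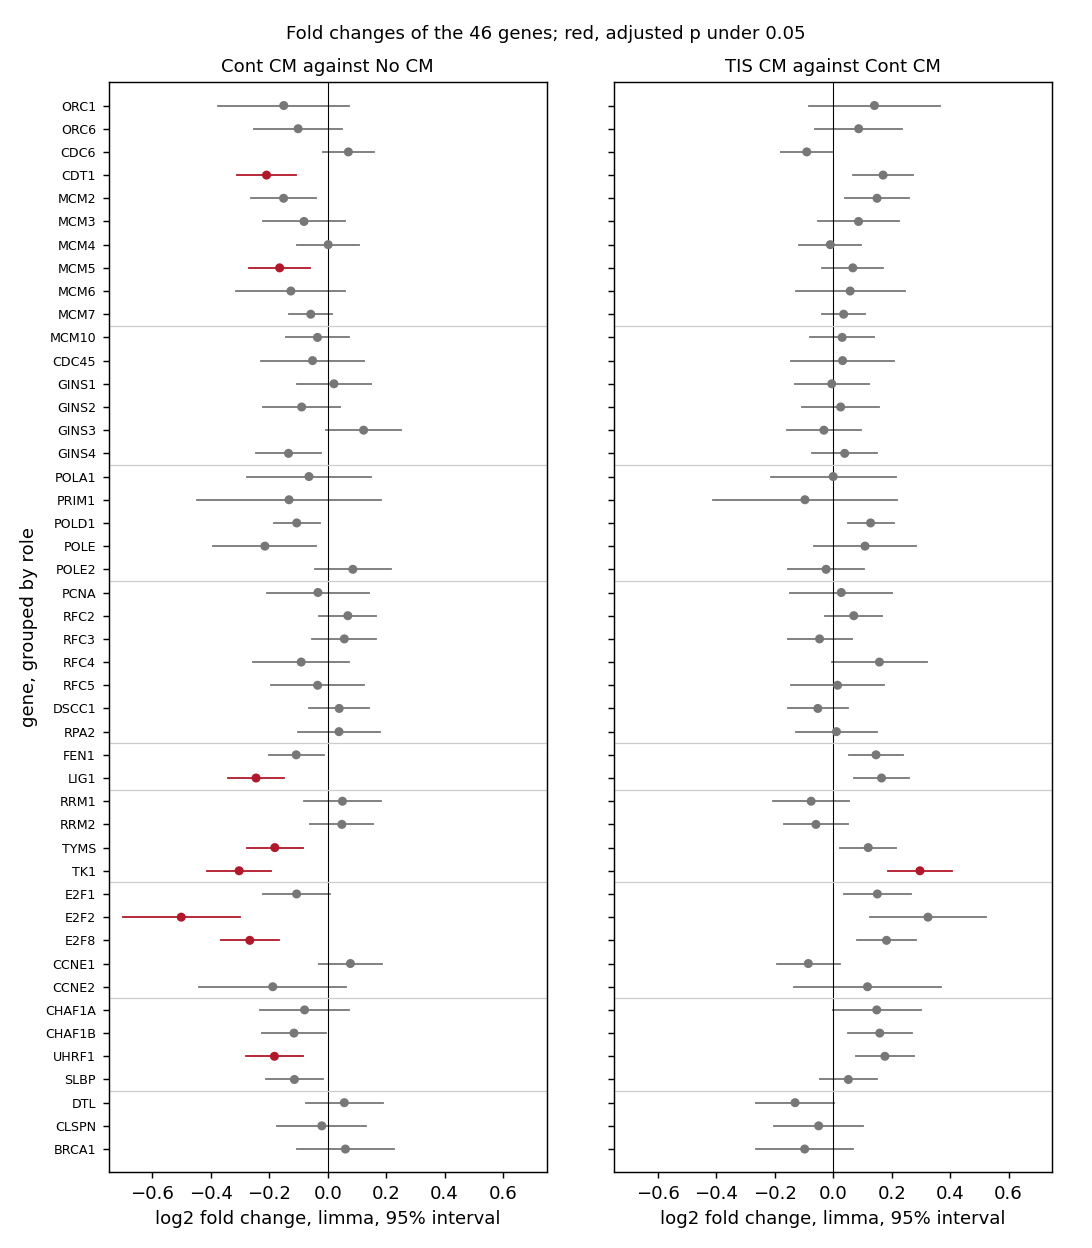
Log2 fold change (limma on log2(FPKM + 0.5)) of each of the 46 genes with its 95% interval, for Cont CM against No CM (left) and TIS CM against Cont CM (right); red marks an adjusted p under 0.05. On the left 8 genes are red, all below 0, and on the right TK1 is, at 0.30; both panels use the same Cont CM libraries.

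Against medium alone, medium from senescent cells gave no called member. Of 46, 0 passed by limma in TIS CM against No CM, 0 passed by limma-voom on the recovered fragments, and 1 had an unadjusted p under 0.05 by limma. No share of all tested genes is given for the unadjusted threshold. Over all tested genes 0.403% were called higher and 0.453% lower in this comparison, 0.855% in all. The gene with the low unadjusted p was RFC2, at 37.0, 35.9 and 37.3 FPKM in No CM and 42.5, 40.0 and 39.0 in TIS CM (log2 fold change 0.14, limma adjusted p = 0.2). The median log2 fold change of the members was -0.01. Groups did not overlap in 2 members with TIS CM above and 4 with it below, against 12.7% and 11.6% of all tested genes. The 95% intervals of 43 of the 46 lay within 1.25-fold. For the 8 genes that fell in Cont CM the log2 fold changes of TIS CM against No CM were -0.18 for E2F2, -0.10 for MCM5, -0.08 for E2F8, -0.08 for LIG1, -0.06 for TYMS, -0.04 for CDT1, -0.01 for TK1 and -0.01 for UHRF1.

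Of 70 further genes listed for licensing, firing, polymerase and clamp loader subunits, nucleotide supply, chromatin and cohesion, RB and E2F regulation and G1 cyclins and kinases, 68 were tested. RNASEH2A and CCND2 were below the filter. In Cont CM against No CM 7 rose (10.3%), 5 fell (7.35%) and 56 did not pass, with a median log2 fold change of -0.03. That is 17.6% in either direction, beside 16.3% of all tested genes. With Cont CM replicate 1 left out, 12 rose and 6 fell, beside 9.59% and 10.4% of all tested genes. The genes with the largest rises were E2F5 (0.27), a repressive E2F, HELLS (0.25), a chromatin remodeller, E2F7 (0.24), the atypical partner of E2F8, and TFDP2 (0.22), a dimer partner of E2Fs, at limma adjusted p between 0.0127 and 0.0382. The genes with the largest falls were SHMT1 (-0.31), which feeds thymidylate synthesis, RECQL4 (-0.27), a helicase of origin firing, ASF1B (-0.26), a histone chaperone, and CHTF8 (-0.22), a clamp loader subunit, at limma adjusted p between 0.00374 and 0.00979. In TIS CM against Cont CM 3 of the 68 rose (RECQL4 0.27, SHMT1 0.25 and CHTF8 0.19) and 0 fell, 4.41% beside 4.48% of all tested genes in either direction, and without Cont CM replicate 1, 4 rose and E2F7 fell. In TIS CM against No CM 0 passed by limma.

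Inhibitors of cyclin-dependent kinases, which hold cells before S phase, numbered 8, of which 6 were tested, with CDKN2A and CDKN2B listed at 0 in every library. CDKN1C (-0.67), CDKN2C (-0.65) and CDKN1B (-0.31) fell in Cont CM against No CM at limma adjusted p of 0.00223, 0.000295 and 0.00196. These are 3 of the 6, beside 8.56% of all tested genes called lower. Without Cont CM replicate 1 these 3 and CDKN2D fell and CDKN1A, the p21 gene, rose, beside 10.4% of all genes lower and 9.59% higher. CDKN2C rose in TIS CM against Cont CM (0.44, limma adjusted p = 0.0113), beside 2.90% of all tested genes called higher. Without Cont CM replicate 1, CDKN1B, CDKN1C, CDKN2C and CDKN2D rose in that comparison, beside 4.86% of all genes.

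Genes of G2 and mitosis were listed for comparison. Of 35, 10 fell in Cont CM against No CM (28.6%, beside 8.56% of all tested genes) and none rose (beside 7.77%), with a median log2 fold change of -0.11. Without Cont CM replicate 1, 10 fell, with CCNB2 no longer among them (limma adjusted p = 0.076) and CDC20 added, and the median was -0.05. The 10 called over all libraries were led by CDC25B (-0.44), a phosphatase that activates mitotic kinase, CCNB2 (-0.30), a cyclin B, BIRC5 (-0.26), the survivin subunit of the chromosomal passenger complex, and CCNA2 (-0.26), cyclin A2, which acts in S phase and G2. In TIS CM against Cont CM BIRC5 (0.32), CCNA2 (0.23) and CDC25B (0.22) rose (8.57%, beside 2.90% of all tested genes), also without Cont CM replicate 1, and in TIS CM against No CM CDC25B fell by 0.21 on the log2 scale (limma adjusted p = 0.0444). Their medians were also lowest in Cont CM replicate 1, at -0.17 from the genes' own means, with 34 of 35 below; replicates 2 and 3 stood at 0.02 and -0.04.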

How the data were processed

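RNA-seq libraries of 9 MDA-MB-231 samples, 3 per group, were read from a table of FPKM values that the authors deposited. Per the submitters' processing notes, their tools included fastp, HISAT2 2.0.5, featureCounts 1.5.0-p3 and DESeq2 1.20.0, with the hg38 build; the settings and the strand of counting are not given in the sources used here. Multiplying the deposited FPKM by gene length and the library's scale gave whole fragments for 100% of values within 0.01, which set the depth per library. All 58735 gene identifiers were in GENCODE 29, and 58631 had equal coordinates.

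Genes with a mean of at least 0.5 FPKM (13912) were tested on log2(FPKM + 0.5) with limma 3.58.1 (R 4.3.3), with an intensity trend, 1 fit over all 9 libraries and Benjamini-Hochberg adjustment over all tested genes; the threshold for a call was an adjusted p of 0.05. Fold changes are on the log2(FPKM + 0.5) scale and understate those of low genes. Lists of the same pathway, cyclin-dependent kinase inhibitors, G2/M genes and markers were described by counts and medians without a set test. Library values are given for the 12 members with the smallest adjusted p in any comparison; E2F1, the cyclin E genes, PCNA, CDC6, the MCM genes and the extremes of each role are named whatever their values, and other lists name up to 4 called genes per direction. The members and lists were chosen with earlier results of these data known. Alternatives changed the pseudocount, filter, gene biotypes, scaling, test (limma-voom on recovered fragments), libraries in the fit, replicate block, and removal of trends with GC content and length; each library was left out in turn. Values without Cont CM replicate 1 for the lists, for groups that do not overlap and for the relation with GC content were added after the data were seen. The fit was tested on simulated data. Figures used matplotlib 3.10.9 under Python 3.11.15. No column of sample values was left unused. The value of 1 marker gene is not reported here.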

Additional observations from a re-analysis of the deposited data

How the results depend on the processing

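No member changed direction past the threshold under any setting run. The median log2 fold change of the members left the spread between replicates only without Cont CM replicate 1, and ranged over the fits that left out 1 library from -0.109 to -0.0106 (Cont CM against No CM, -0.09 with all), from -0.00805 to 0.0858 (TIS CM against Cont CM, 0.05) and from -0.0281 to -0.00389 (TIS CM against No CM, -0.01). Members called in Cont CM against No CM numbered 8, and 5 with only the 2 groups in the fit. They numbered 5 with the length and GC trend removed, 4 with that and the replicate block together, and between 4 and 9 with 1 library left out. Other settings called more, all lower: 11 with equal library sums, 10 with limma-voom and 9 with protein-coding genes only. MCM2 was added in each of these, POLD1 and GINS4 with equal library sums, and POLE with limma-voom. Over all genes 1399, 1402 and 1375 were called lower in these fits, beside 1191 in the main fit. In TIS CM against Cont CM 1 member was called, 4 with a minimum mean of 2 FPKM, 6 with protein-coding genes only, 4 with limma-voom on recovered fragments, 0 with only the 2 groups, 0 with the trend removed and 0 with trend and block, and between 0 and 3 with 1 library left out. Fewer genes enter the fit and the adjustment under the stricter filter and the protein-coding setting. The cause of the differing counts was not tested for any setting.

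Over all tested genes 2272 were called in Cont CM against No CM, 1242 with only the 2 groups, 1461 with the replicate block, 1408 with trend and block, and between 1075 and 2775 with 1 library left out. In TIS CM against Cont CM 623 were called, 207 with no filter, 995 with protein-coding genes, 1085 with limma-voom, 33 with only the 2 groups, 126 with the replicate block, 182 with the trend removed, 9 with trend and block, and between 11 and 1084 with 1 library left out. Equal library sums turned the 404 higher and 219 lower calls of that comparison into 284 and 395. In TIS CM against No CM 119 were called, 46 with no filter, 210 with protein-coding genes, 245 with limma-voom, 331 with only the 2 groups, 4 with the replicate block, 5 with trend and block, and between 9 and 364 with 1 library left out.

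No pairing by replicate number was seen in the values: deviations of the 9 same-numbered pairs correlated between -0.19 and 0.08. Of the 9 libraries, 2 correlated best with their own number. With 3 libraries a group, such correlations cannot show whether same-numbered samples were handled together. With the replicate block 6 members were called lower in Cont CM against No CM, as TYMS (limma adjusted p = 0.0575) and MCM5 (0.0727) did not pass, 1 member in TIS CM against Cont CM and 0 in TIS CM against No CM. With 3 libraries a group, the smallest change called among the members was that of MCM5.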
